A study of Nothobranchius furzeri with 6 samples.

Results

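Alanine, threonine, valine and proline are each written by 4 codons that differ only in the third base, and such a set of 4 is called a box. The positions described here are the codons of these boxes in ribosome profiling data, 605784 of the 2513258 internal codon positions of 6335 covered transcripts. The whole deposited set held 12462119 coding positions in 22757 transcripts. A position was taken if the deposited codon encoded 1 of the 4 amino acids, if it lay at least 20 codons from both ends of the coding sequence, and if its transcript had over 0.5 reads per codon and over 64 internal reads in each age with the libraries of an age summed. There were 170902 alanine, 134767 threonine, 166674 valine and 133441 proline positions, and 5762 of 139203 proline positions were left out because they stood in runs of 3 or more prolines.

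Ribosome profiling sequences the mRNA fragments (footprints) that ribosomes protect from nuclease. The tissue was liver of Nothobranchius furzeri, the African turquoise killifish, whose short life makes it a model of aging, in 3 ages with 2 libraries each: young (5 weeks after hatching), adult (12 weeks) and old (39 weeks). Each library was made from frozen livers pooled from several fish, males and females in equal ratio, and the methods name the strain MZM-0410 for all experiments unless otherwise stated. No treatment or allele is labelled for any of the 3 groups. The spread between libraries of an age is therefore a spread between pools, which may be partly technical.

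The libraries held between 22617158 and 39738019 footprints, and old replicate 2 was the shallowest, with 7.03 reads per internal codon against 12.6 to 13.3 in the other 5 libraries. The 10 most abundant transcripts took between 25.2% (old replicate 2) and 62.3% (adult replicate 2) of the footprints of a library. Total reads therefore do not give the depth over the other transcripts. The transcript identifiers carry no gene names, 0 of them were found in the RefSeq gene table used here, and the liver label could not be set against marker genes.

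A tRNA reads the third base of a codon with the first base of its anticodon, and this pairing (wobble) is less strict than the others. In eukaryotes the adenosine at that place of the tRNAs for these 4 amino acids is converted to inosine, which can pair with codons ending in T (U in the mRNA), C or A, while further tRNAs with U or C at that place read codons ending in A or G. An incoming aminoacyl-tRNA binds in the A site of the ribosome, the P site holds the tRNA that carries the growing chain, and the E site is where the spent tRNA leaves. Proline is known as a slow former of peptide bonds.

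The measure used here was the pause score, the reads at a codon divided by the mean reads per internal codon of the same transcript in the same library, so that a score of 1 is the average of the transcript. The deposited codon was read as the codon in the P site, the next codon as the one in the A site and the codon before as the one in the E site. The SD of log2 mean scores over the 61 sense codons was largest at the deposited codon (0.28), with 0.23 at the next codon and 0.20 at the one before. This SD does not tell which site the deposited codon held, and the methods describe the estimate as one of the A site. On that reading each value given here for the P site would belong to the A site and each value for the E site to the P site, while the values given for the A site would lie 1 codon beyond it, so the site names depend on that choice whereas the differences at a given distance from the deposited codon do not.

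Single positions give examples of high scores. Each sequence below is the position of its codon with the highest minimum pause score over the 6 libraries, in transcripts with at least 5 reads per internal codon in every library. Such sites were chosen for being extreme and are shown as a description. Each window of 9 codons reads 5′ to 3′ and the capitals mark the codon in the P site.
CCT, codon 38 of 270: cagctggtgaaaCCTttatctttggct
CCA, codon 23 of 176: actaacgcagcaCCAacccatgaacac
CCC, codon 377 of 883: acagatggagacCCCacctcaggagaa
GCT, codon 178 of 232: gagctgctccatGCTctgggcttcaac
GTG, codon 39 of 860: aagcaggctacaGTGggagatgtaaac
ACG, codon 440 of 474: ccgctgagggagACGgactcagaggac

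The CCT site had pause scores of 31.4 and 29.5 in the young libraries, 25.3 and 29.0 in the adult libraries and 24.0 and 21.0 in the old libraries. The CCA site lay in a coding sequence of 176 codons, between the codons GCA at 22 and ACC at 24 that were the highest alanine GCA and threonine ACC sites, and its scores spanned 22.3 to 42.9. The ACG site was much lower, at 6.37 to 8.19 over the 6 libraries, although ACG had the highest mean score of its box in the P site. In 716 transcripts with at least 5 reads per internal codon, 0.934% of CCT positions had a score above 6, against 0.303% of CCC positions and 0.253% of all sense codon positions.

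**Figure D1:**
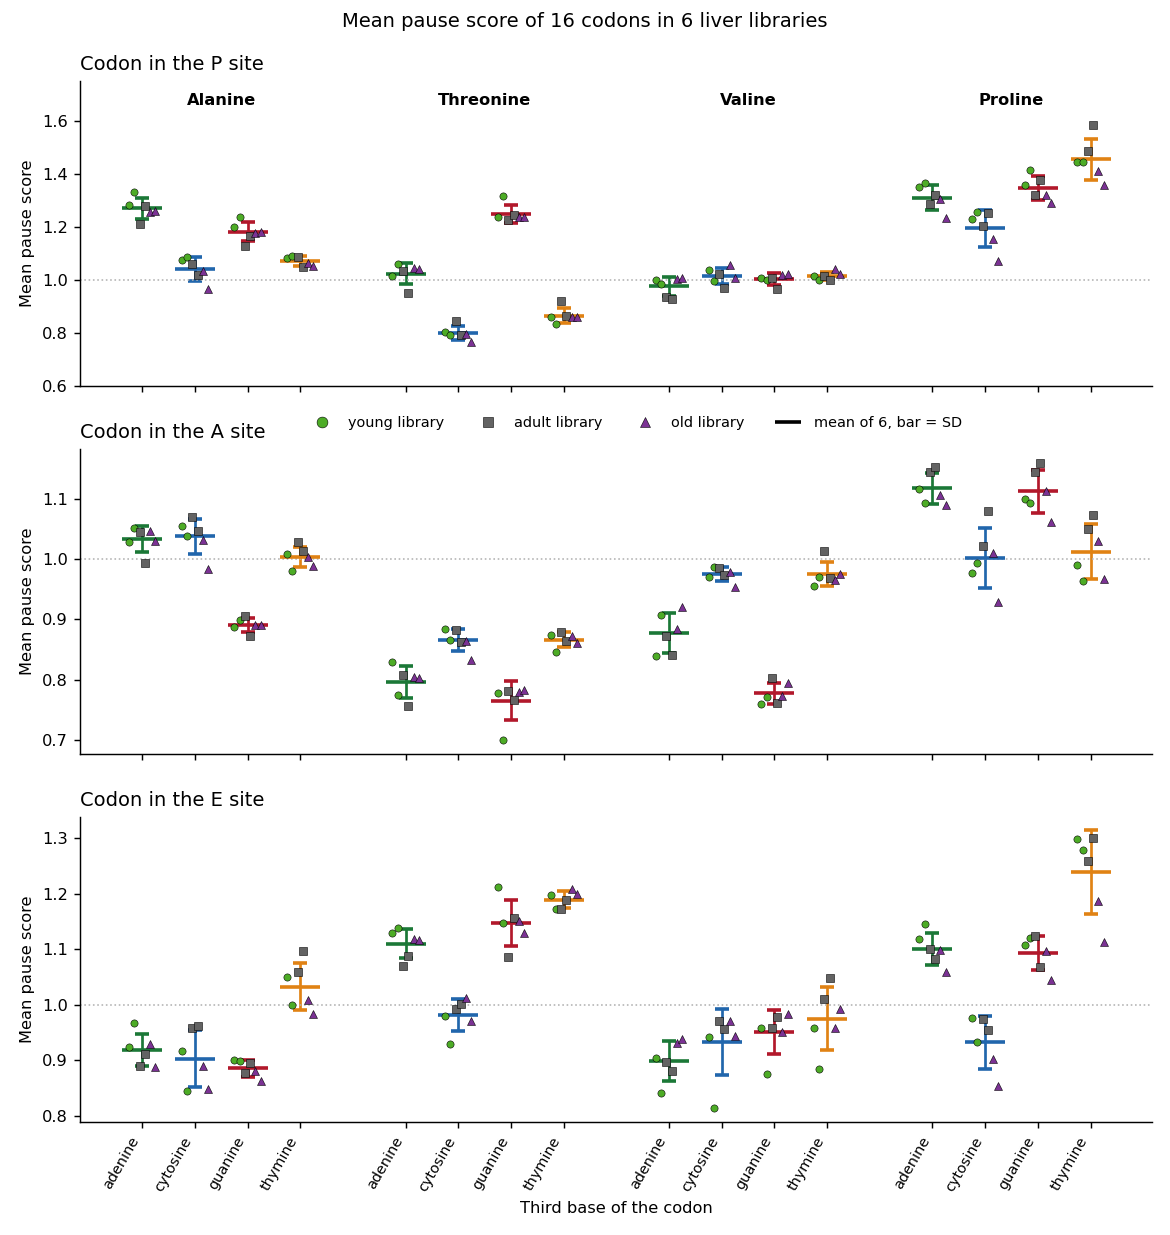
Mean pause score (vertical axis, no unit) of the 16 codons by the third base (horizontal axis) for codons in the P, A and E sites. Each symbol is 1 of 6 libraries (circle young, square adult, triangle old), the bar is the mean and the error bar the SD over 6 libraries. In the P site threonine codons spread from 0.800 to 1.25 and valine codons from 0.976 to 1.02.

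In the P site synonymous codons differed most for threonine and least for valine. ACG had pause scores of 1.24 and 1.32 in the young libraries, 1.22 and 1.24 in the adult libraries and 1.24 and 1.24 in the old libraries. ACC had 0.805 and 0.793 in the young libraries, 0.844 and 0.792 in the adult libraries and 0.797 and 0.766 in the old libraries. The lowest ACG library lay above the highest ACC library, and in 6 of 6 libraries ACG came first, followed by ACA, then ACT, with ACC last. ACG was 1.56-fold above ACC, a log2 ratio of 0.64 ± 0.07 (SD, n = 6), and this was the largest absolute log2 ratio of the 87 synonymous pairs in the P site. Threonine ACA, at 1.02 ± 0.04, stood between the 2 extremes and ACT was at 0.866 ± 0.03 (SD, n = 6).

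For alanine the A-ended codon led. GCA had 1.28 and 1.33 in the young libraries, 1.21 and 1.28 in the adult libraries and 1.26 and 1.26 in the old libraries. GCC had 1.08 and 1.09 in the young libraries, 1.06 and 1.02 in the adult libraries and 1.03 and 0.967 in the old libraries. The 2 codons did not overlap, GCA was 1.22-fold above GCC (log2 ratio 0.29 ± 0.06, SD, n = 6), and GCG at 1.18 and GCT at 1.07 lay between them in 6 of 6 libraries.

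For proline the T-ended codon led instead. CCT had 1.45 and 1.44 in the young libraries, 1.49 and 1.58 in the adult libraries and 1.41 and 1.36 in the old libraries. CCC had 1.23 and 1.26 in the young libraries, 1.20 and 1.25 in the adult libraries and 1.15 and 1.07 in the old libraries. CCT was 1.22-fold above CCC (log2 ratio 0.28 ± 0.06, SD, n = 6), with CCG at 1.35 and CCA at 1.31 between them in 6 of 6 libraries. The mean of the box was the highest of the 4 boxes, a geometric mean score of 1.32 for proline beside 1.14 for alanine, 1.00 for valine and 0.970 for threonine. It was not particular to proline, since the 4 codons of glycine, outside these boxes, were at 1.35.

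Valine codons were close together in the P site, with means of 1.02 for GTT, 1.02 for GTC, 1.00 for GTG and 0.976 for GTA, and the same order was seen in 1 of 6 libraries. GTT and GTC did not differ beyond their spread (log2 ratio of GTC over GTT -0.0015, SE 0.02, adjusted p = 0.94 in limma), and neither did GTC and GTG (adjusted p = 0.429) or GTG and GTT (adjusted p = 0.369). Cytosine was the lowest base at this place for alanine, threonine and proline and adenine for valine.

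Of the 24 pairs of synonymous codons in the 4 boxes, 21 passed the test in the P site (limma on the log2 ratio within a library, with Benjamini-Hochberg adjustment over 261 pairs and sites), where 88.5% of all 87 synonymous pairs passed. With an absolute log2 ratio of at least 0.2 as well, 8 of 24 pairs passed against 44.8% of all pairs. The share of pairs that passed was near that over all amino acids, and the share of large ones was below it. The range between the highest and the lowest codon was larger for threonine than for alanine, valine and proline in 6 of 6 libraries each (exact sign-flip permutation tests, two-sided, p = 0.0312, adjusted p = 0.0469 over 18 such tests). With 6 libraries 0.0312 is the smallest p this test can give, so the adjusted p depends on how many of the 18 tests reached it.

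Codons in the A site had another order. For 3 of the 4 boxes the G-ended codon had the lowest mean, in 6 of 6 libraries for alanine and valine and in 5 of 6 for threonine. GTG of valine had 0.759 and 0.772 in the young libraries, 0.803 and 0.762 in the adult libraries and 0.773 and 0.794 in the old libraries. GTT of valine had 0.956 and 0.970 in the young libraries, 1.01 and 0.969 in the adult libraries and 0.966 and 0.975 in the old libraries. All 6 GTG libraries lay below all GTT libraries, and GTG was 0.797-fold of GTT (log2 ratio -0.33 ± 0.02, SD, n = 6, adjusted p = 1.76e-14 in limma).

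GCG of alanine was at 0.891 ± 0.01 against 1.00 ± 0.02 for GCT and 1.04 ± 0.03 for GCC. ACG of threonine was the lowest at 0.765 ± 0.03 although it was the highest in the P site, and it lay below ACT by a log2 ratio of -0.18 (SE 0.02, adjusted p = 3.75e-09 in limma). Proline departed from this, since CCA at 1.12 ± 0.03 and CCG at 1.11 ± 0.04 lay above CCT at 1.01 ± 0.05 and CCC at 1.00 ± 0.05 (SD, n = 6). CCG and CCA did not differ beyond their spread (adjusted p = 0.729 in limma), but CCG was lower with the neighbouring codons of a footprint modelled together (log2 ratio -0.064, adjusted p = 0.00099) and with over 2 reads per codon (-0.053, adjusted p = 0.00668).

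In the A site 19 of 24 pairs passed, where 80.5% of all pairs passed, and 4 of 24 passed with an absolute log2 ratio of at least 0.2, against 29.9% of all pairs. The valine range, which was the smallest in the P site, was the largest of the 4 boxes in the A site at 0.34 on the log2 scale and exceeded that of alanine, threonine and proline in 6 of 6 libraries each (exact sign-flip permutation tests, adjusted p = 0.0469).

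For codons in the E site the T-ended codon had the highest mean in all 4 boxes, in 6 of 6 libraries for alanine and proline, 5 of 6 for threonine and 4 of 6 for valine. CCT of proline had 1.30 and 1.28 in the young libraries, 1.26 and 1.30 in the adult libraries and 1.19 and 1.11 in the old libraries. CCC of proline had 0.975 and 0.933 in the young libraries, 0.974 and 0.955 in the adult libraries and 0.902 and 0.854 in the old libraries. CCT was 1.33-fold above CCC (log2 ratio 0.41 ± 0.03, SD, n = 6) and the libraries of the 2 codons did not overlap.

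ACT of threonine was at 1.19 ± 0.01 against 0.981 ± 0.03 for ACC (log2 ratio of ACC over ACT -0.28, adjusted p = 6.6e-13 in limma). GCT of alanine was at 1.03 ± 0.04 and GCG at 0.886 ± 0.02 (SD, n = 6). GTT of valine was at 0.975 ± 0.06, but GTG at 0.951 ± 0.04 was not separated from it (adjusted p = 0.0647 in limma). GTG did pass as lower with the replicate number as a block (adjusted p = 0.0315), with scores capped at 10 (0.0425), at equal depth (0.00616) and with over 2 reads per codon (0.00261).

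For the E site 19 of 24 pairs passed, where 80.5% of all pairs passed, and 6 of 24 passed with an absolute log2 ratio of at least 0.2, against 21.8% of all pairs. With the neighbouring codons of a footprint modelled together, 2 of the 24 pairs stayed at an absolute log2 ratio of at least 0.2 in the E site. The share over all pairs in that setting is not given here. GTC and GTG of valine then lay above GTT (adjusted p = 0.00762 and 0.0103 in limma). ACG and ACT of threonine were then not separated (log2 ratio of ACG over ACT 0.025, adjusted p = 0.166). The proline range of 0.41 exceeded those of alanine, threonine and valine in 6 of 6 libraries each (exact sign-flip permutation tests, adjusted p = 0.0469), and the alanine range exceeded that of valine with the same p.

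Averaged over the 4 boxes, codons ending in C lay below those ending in T by a log2 ratio of -0.24 ± 0.03 in the E site and -0.11 ± 0.03 in the P site, and codons ending in G lay below those ending in A by -0.11 ± 0.03 in the A site (SD, n = 6). In the P site the G-ended codons lay above the A-ended ones by 0.066 ± 0.02 on average, but the boxes did not share this. Threonine ACG was at 1.25 against 1.02 for ACA, while alanine GCG was at 1.18 against 1.27 for GCA. Proline CCG was at 1.35 against 1.31 for CCA, and valine GTG at 1.00 against 0.976 for GTA. Of the 9 such averages, 5 kept their sign in 6 of 6 libraries, with p = 0.0312 in the exact sign-flip permutation test and an adjusted p of 0.0563, so that none passed 0.05 after adjustment. These 5 did pass with summed reads, no coverage minimum, neighbouring codons modelled, more codons left out at each end, and within transcripts. Their own p was already at 0.0312, the smallest this test can give. The adjusted p could therefore fall only because further averages reached 0.0312 in those settings, which adds no evidence for these 5.

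**Figure D2:**
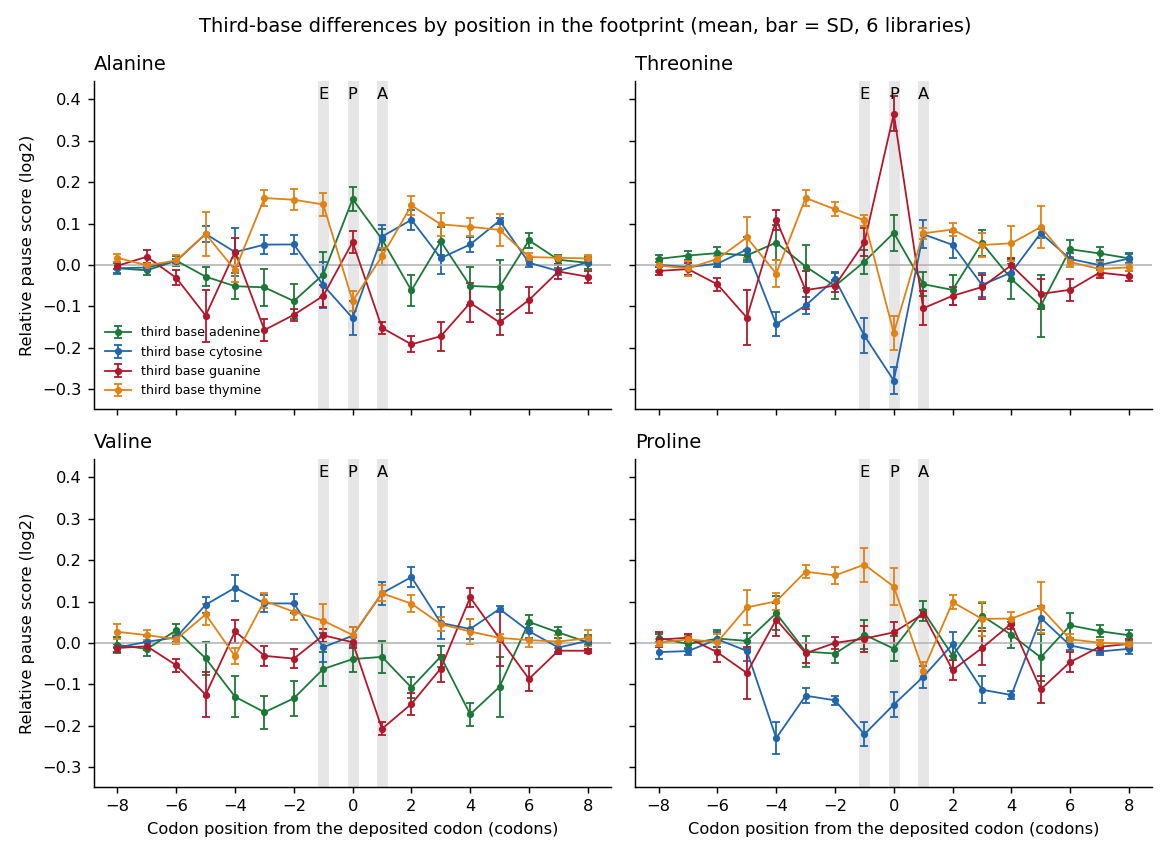
Pause score of a codon by the third base, relative to the mean of its box (vertical axis, log2) against the position of the codon relative to the deposited codon (horizontal axis, codons), for each amino acid. Points are means and bars the SD over 6 libraries, and the grey bands mark the E, P and A sites. Lines part between -5 and 6 codons and meet at -8, -7, 7 and 8.

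The third base went with the score at more places than these 3. Over all 61 codons the SD of log2 mean scores was 0.21 at 4 codons before the deposited codon and 0.20 at 2 codons after it, and it was 0.034 at -8 and 0.025 at 8. For proline, codons ending in C were below the mean of their box by -0.23 at -4, beside -0.22 in the E site. For valine, codons ending in A were at -0.17 and those ending in G at 0.11 at 4 codons after the deposited codon.

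**Figure D3:**
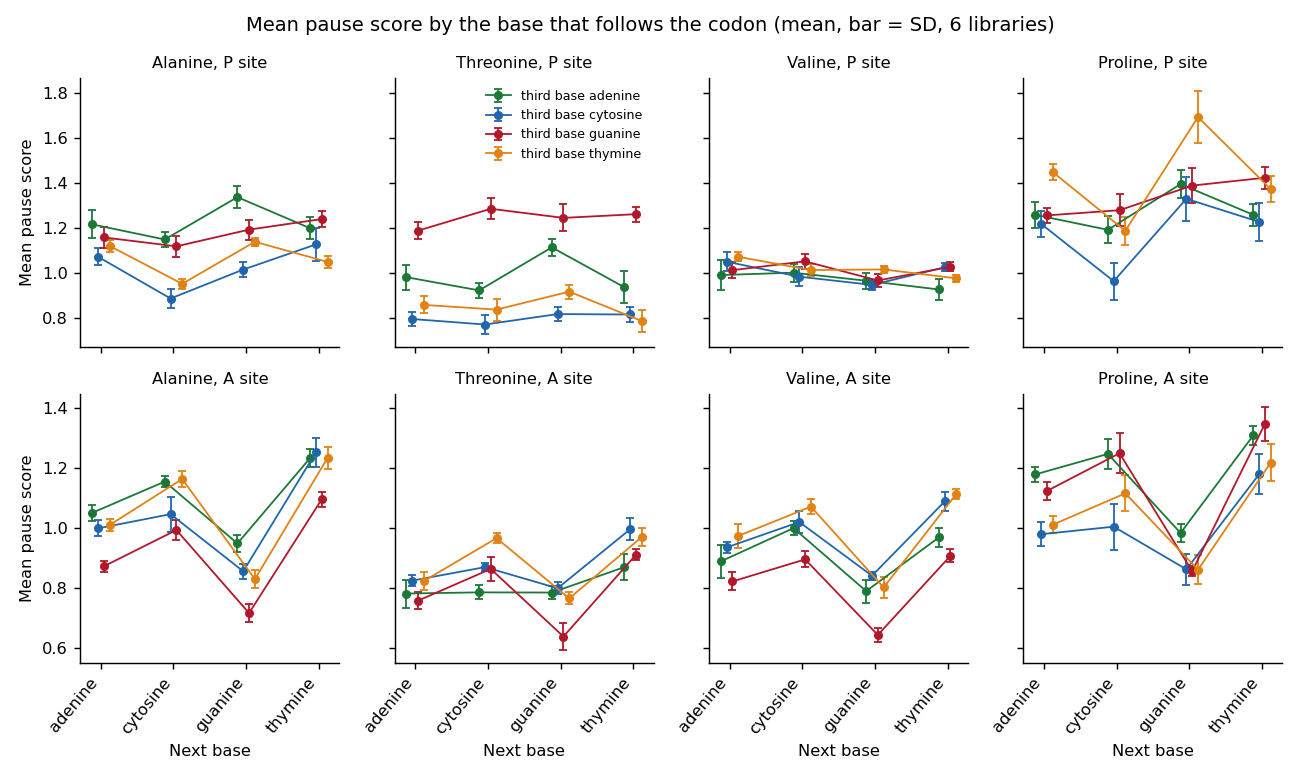
Mean pause score (vertical axis, no unit) by the base that follows the codon (horizontal axis), by amino acid, for codons in the P site (upper row) and A site (lower row). Colours give the third base, points the mean and bars the SD over 6 libraries. In the A site, scores were lowest before guanine for 15 of 16 codons.

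The base after the codon went with the score too, and codons of a box did not stand before each base equally often. GCC stood before adenine at 25225 of 58259 positions and GCT at 7137 of 56970. In the A site 15 of 16 codons were lowest before guanine and 15 of 16 were highest before thymine. GTG of valine was at 0.644 before guanine and 0.908 before thymine. GTG and GCG were the lowest A-site codons of their boxes before each base, but ACG was so before adenine and guanine only. Before cytosine ACA was at 0.786 against 0.864 for ACG, and before thymine ACA was at 0.870 against 0.912 for ACG. Among E-site codons 16 of 16 were lowest before adenine, and 12 of 16 were highest before guanine. The T-ended codon was the highest E-site codon of each box before guanine, but of no box before thymine. Before thymine GCC was at 1.04 against 0.994 for GCT, and ACG at 1.15 against 1.12 for ACT. There GTC was at 1.03 against 0.924 for GTT, and CCG at 1.20 against 1.15 for CCT. In the P site there was less of a common order, with 9 of 16 codons lowest before cytosine. CCT of proline in the P site was at 1.70 before guanine and 1.19 before cytosine, a wider difference than that between CCT and CCC. It led its box before adenine and guanine only. Before cytosine CCG was at 1.28 and CCA at 1.193 against 1.188 for CCT, and before thymine CCG was at 1.42 against 1.37 for CCT. GCA of alanine led before each base except thymine, where GCG was at 1.24 against 1.20 for GCA.

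The order of codons was also read with each of the 20 amino acids next to the codon, a split added after the data were seen. ACG was above ACC in the P site with 20 of 20 following and 20 of 20 preceding amino acids, by log2 ratios of 0.39 to 1.03 and 0.40 to 0.92. CCT was above CCC in the P site with 20 of 20 on either side, and GTC was above GTG in the A site with 20 of 20 on either side. In the E site the valine order GTT over GTA held with 11 of 20 following amino acids. When the internal part was cut in 3 equal pieces, also a later split, ACG over ACC in the P site was 0.63 in the first piece, 0.64 in the middle and 0.67 in the last.

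**Figure D4:**
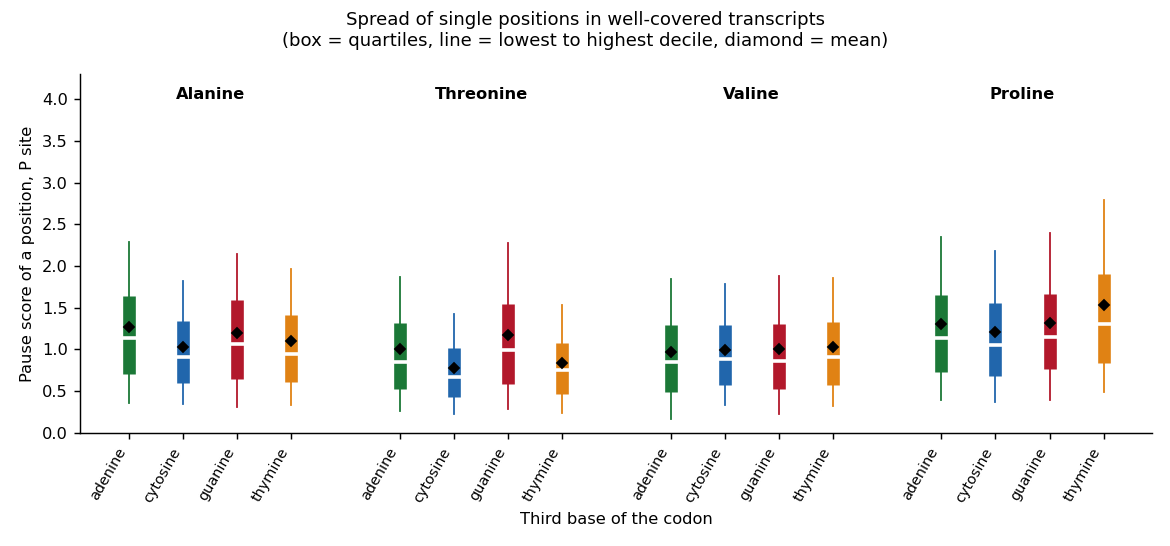
Pause scores of single positions in the P site (vertical axis, no unit) by amino acid and the third base (horizontal axis) in transcripts with at least 5 reads per internal codon in every library. Boxes span the quartiles, white marks are medians, lines span the lowest to the highest decile and diamonds are means. The boxes overlap for all 16 codons, and the threonine ACG median of 0.989 lies above the ACC median of 0.673.

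Single positions of one codon varied far more than the codon means. In the well covered transcripts the middle part of ACG positions, between the quartiles, ran from 0.585 to 1.55, and that of ACC positions from 0.421 to 1.01. The median score of ACG was 0.989 and that of ACC 0.673. For CCT the median was 1.30 and the highest decile 2.79, and for CCC they were 1.05 and 2.17. The highest 1% of positions held 5.15% of the summed score of CCT and 4.93% of that of CCC.

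The codons were not used equally. GTG made up 44.6% of valine positions and GTA 8.14%, GCG 11.2% of alanine positions, and CCG 14.9% of proline positions. Over the 16 codons, usage within the box and score relative to the box had a Pearson r of -0.38 and a Spearman rho of -0.46 in the P site, r of -0.064 in the A site and 0.026 in the E site. The 16 points share the 6 libraries and the 4 boxes, so these values are a description only.

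Other boxes of 4 codons give a scale for these ranges. In the P site the range over the 4 codons was 0.52 for serine TCN, with TCG highest in 6 of 6 libraries, 0.24 for glycine, 0.21 for leucine CTN and 0.20 for arginine CGN, beside 0.64 for threonine and 0.069 for valine. In the A site the range was 0.55 for glycine, 0.31 for arginine CGN, 0.11 for serine TCN and 0.11 for leucine CTN, beside 0.34 for valine. These ranges were set side by side and their differences from the 4 boxes were not tested.

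Few of the 16 codons differed between ages beyond the spread of the libraries, which limma shared over codons. The age contrasts share libraries, so that they are not independent of each other. In the P and A sites limma called 0 of 16 codons in each of the 3 age contrasts, where 0% to 1.64% of all 61 sense codons were called. At an unadjusted p under 0.05 there were 2, 1 and 3 of 16 codons in the P site for old against young, adult against young and old against adult. Over all 61 codons there were 7, 3 and 9. In the A site there were 0, 2 and 1 of 16 codons in the same order, where there were 6, 5 and 5 of 61. In edgeR 0 of 16 codons were called in every contrast. The difference between ACG and ACC in the P site was a log2 ratio of 0.68 in young, 0.59 in adult and 0.66 in old livers.

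**Figure D5:**
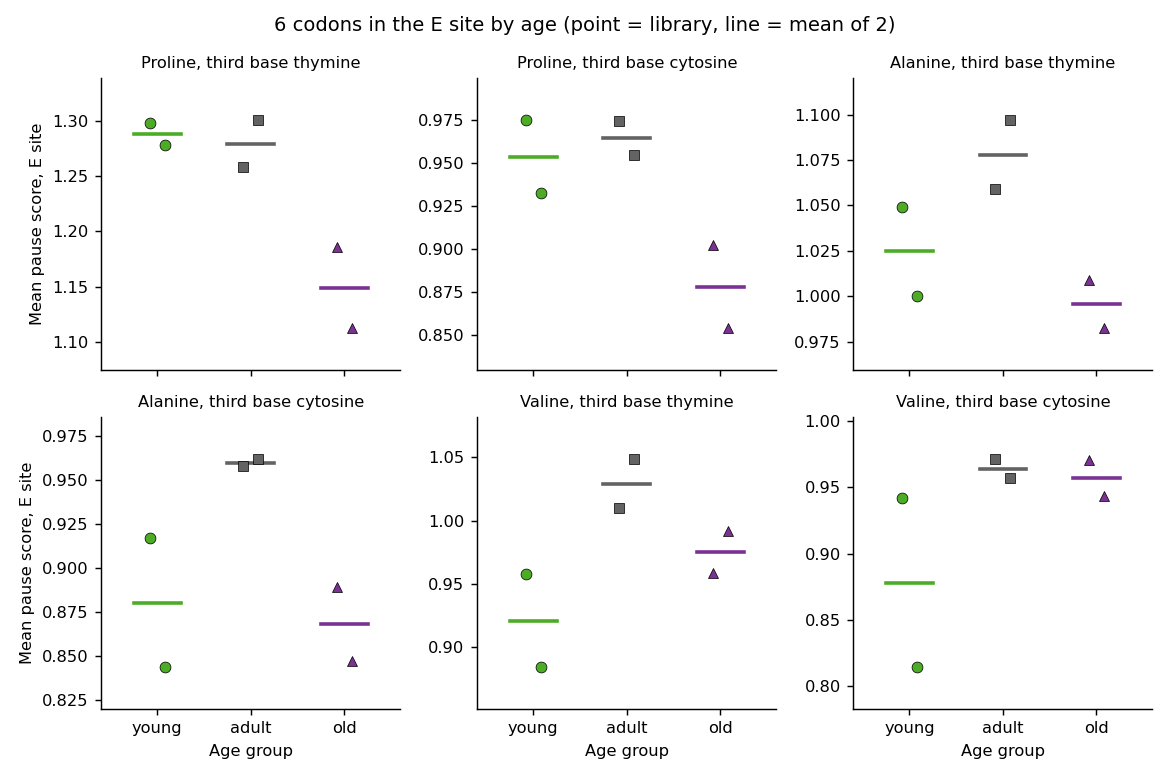
Mean pause score in the E site (vertical axis, no unit, each panel with its own scale) of 6 codons by age (horizontal axis). Symbols are libraries and lines the mean of 2. Proline ending in thymine was at 1.19 and 1.11 in old against 1.30 and 1.28 in young libraries.

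Some codons passed in the E site, where the SE of mean scores was the same for every called codon. CCT of proline was lower in old than in young livers by a log2 difference of -0.17 (SE 0.04, adjusted p = 0.00932 in limma), with scores of 1.19 and 1.11 in old against 1.30 and 1.28 in young libraries. It was the 1 codon called of 16, where 1.64% of 61 codons were called. Old replicate 2, the shallowest library, had the lowest value, and without it the difference was -0.12 with adjusted p = 0.337. With all libraries thinned to the total internal reads of old replicate 2 (equal depth), it was -0.16 with adjusted p = 0.0134, in 4529 transcripts. That thinning equalized total reads but not the reads outside the 10 most abundant transcripts, so it cannot tell whether depth matters. With single scores capped at 10 the difference was -0.15 with adjusted p = 0.114. The call was also lost with no coverage minimum (adjusted p = 0.269), with the first and last 40 codons left out (0.0622), with summed reads (0.157) and in edgeR (0.145). With the replicate number as a block the SE was 0.0391, and CCT (adjusted p = 0.00273), CCC (0.0315) and GTC of valine (0.0271) passed. The share of all 61 codons called in that fit is not given here.

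Between old and adult livers 4 of 16 codons were called lower in the E site, where 18.0% of 61 codons were called. CCT was at 1.19 and 1.11 in old against 1.26 and 1.30 in adult libraries (log2 difference -0.16, adjusted p = 0.00549 in limma). CCC was at 0.902 and 0.854 in old against 0.974 and 0.955 in adult libraries (-0.14, adjusted p = 0.0133). GCC and GCT of alanine were lower by -0.15 (adjusted p = 0.0104) and -0.11 (adjusted p = 0.0445). All 4 of these calls were lost without old replicate 2 (adjusted p between 0.252 and 0.511) and without adult replicate 2 (between 0.109 and 0.556), those of CCC and GCT also without adult replicate 1 (0.102 and 0.122) and that of GCT also without old replicate 1 (0.0764). The 4 calls were lost as well with scores capped at 10 (adjusted p between 0.0900 and 0.169), with summed reads (0.0839 to 0.259), with no coverage minimum (0.105 to 0.501) and in edgeR (0.0853 to 0.269). GCT was not called with 40 codons left out at each end (0.0704), and CCC, GCC and GCT were not called when p-values were adjusted over all sites and contrasts (0.0717, 0.0520 and 0.159).

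Between adult and young livers GTT and GTC of valine were called higher in the E site, 2 of 16 codons where 3.28% of 61 codons were called. GTT was at 1.01 and 1.05 in adult against 0.957 and 0.884 in young libraries (log2 difference 0.16, adjusted p = 0.0130 in limma). GTC was at 0.971 and 0.957 in adult against 0.942 and 0.814 in young libraries (0.14, adjusted p = 0.0438). Young replicate 2 was the lowest library for both codons, and without it the adjusted p was 0.477 for GTT and 0.863 for GTC. Without adult replicate 2 it was 0.577 and 0.287 for the same codons, and without old replicate 1 it was 0.0529 for both. The GTC call was lost without adult replicate 1 (0.0789) and without old replicate 2 (0.0585) as well. Both calls were also lost with scores capped at 10 (adjusted p = 0.0931 for each), with no coverage minimum (0.311 for each), with 40 codons left out at each end (0.181 for GTT and 0.234 for GTC) and with summed reads (0.157 and 0.191 for the same codons). GTC was not called with neighbouring codons modelled (0.119) or with adjustment over all sites and contrasts (0.0717). With the replicate number as a block GCC of alanine was called higher too (log2 difference 0.13, adjusted p = 0.0336). In edgeR none of the 16 codons was called in the E site in any contrast. The edgeR fit used the same summed reads and expected reads as the summed-reads setting, so these alternatives are not independent. Both weight positions by transcript abundance, and the 10 most abundant transcripts took 25.2% to 62.3% of the footprints of a library.

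Whether differences between synonymous codons themselves changed with age was tested on the score of a codon relative to the mean of its synonymous codons. By construction these relative scores balance out within a box in each library, so calls in the same box are not independent. In the P and A sites 0 of 16 codons were called in limma in each contrast, where 0% to 1.69% of 59 codons with a synonym were called. At an unadjusted p under 0.05 there were 0, 2 and 2 of 16 codons in the P site for old against young, adult against young and old against adult. Over all 59 codons there were 3, 5 and 7. In the A site there were 2, 1 and 2 of 16 codons in the same order, where there were 10, 7 and 8 of 59. In the E site 3 of 16 codons were called between adult and young livers, where 8.47% of 59 were called. Relative to its box ACC was higher by 0.084 (adjusted p = 0.0317), GCC was higher by 0.099 (adjusted p = 0.0296) and GCA was lower by -0.095 (adjusted p = 0.0296) in adult livers. These 3 calls were lost without young replicate 2 (adjusted p = 0.577 for each) and without adult replicate 1 (between 0.272 and 0.309), and that of ACC also without old replicate 1 (0.0759) or old replicate 2 (0.0818). With the replicate number as a block none of the 3 passed (adjusted p = 0.0623 for ACC and 0.104 for GCA and GCC), and none passed with summed reads (0.0918 to 0.113), with no coverage minimum (0.252 to 0.959) or with adjustment over all sites and contrasts (0.0576 to 0.0950). ACC was not called at equal depth (0.0715) or with over 2 reads per codon (0.0952) either. In the block fit CCT was called higher in the P site in adult than in young livers (0.096, adjusted p = 0.0137) and ACA higher in old than in adult livers (0.083, adjusted p = 0.0316), and GTT was called lower in the E site in old than in adult livers (-0.073, adjusted p = 0.0366). For old against young and old against adult livers 0 of 16 codons were called in the E site, where 0% and 5.08% of 59 were called. At an unadjusted p under 0.05 there were 1 and 6 of 16 codons there, where there were 5 and 17 of 59.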

How the data were processed

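The authors deposited counts, the raw number of footprints at each codon of the longest transcript of a gene, with 1 column per library. Per the labels and methods, the authors processed reads with CASAVA 1.8, cutadapt 1.4.2 and Bowtie 1.3.1, kept uniquely aligned reads, and set the ribosome position with riboWaltz. Unique alignment lowers counts in regions shared by paralogs. No molecular identifiers were described, so PCR copies are counted separately.

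Pause scores were computed as reads at a position over the mean reads per codon of the internal part of its transcript, without the first and last 20 codons, and averaged over positions with equal weight. Ratios of synonymous codons and age contrasts were tested on the log2 scale with limma 3.58.1 over all codons, with edgeR 4.0.16 as the alternative for age, and single values with exact sign-flip permutation tests. The p-values measure the spread between pools of livers, and limma shares that spread over codons of the same libraries. For mean scores in the E site the SE of an age contrast was 0.0428 for every called codon. These p-values therefore rest on a spread shared over codons, and the spread of a called codon between its own libraries did not enter. Codons of the same libraries are not independent, so the p-values may be too small. Each age has libraries numbered 1 and 2, and the labels do not name the number as a batch. The deviations of same-numbered libraries from their age means had r over codons of 0.31 for adult and young, 0.43 for old and young and 0.11 for old and adult. With 2 libraries per age these deviations mirror each other, so the sign of r depends on the numbering, and r was not tested. A fit with the number as a block is given beside the calls it changes. With a library left out, 1 library remained in its age and transcripts were selected anew. Their number fell from 6335 to between 3883 (without adult replicate 1) and 5644 (without old replicate 2). Which of these changes lost a call was not tested. Code was tested on simulated data. All 16 codons are named, and the single sites were chosen as the position of each codon whose lowest score over the 6 libraries was highest. The members, lists and tests were chosen with earlier results of these data known. The alternatives were other weights, coverage minimums, caps, margins, depths, sites, neighbouring codons, tests and libraries left out, and splits by neighbouring amino acid and by piece of the coding sequence (3 equal parts) were added after the data were seen.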

Additional observations from a re-analysis of the deposited data

Results flagged for a closer look

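In the E site 3 codons differed between adult and young livers in their score relative to their synonymous codons, a test of their difference from the box, but none of the 3 passed with the replicate number as a block (adjusted p = 0.0623 for ACC and 0.104 for GCA and GCC). ACC of threonine was higher in adult livers by 0.084 on the log2 scale, GCC of alanine was higher by 0.099, and GCA of alanine was lower by -0.095 (limma, adjusted p = 0.0317, 0.0296 and 0.0296 over 59 codons). GCC and GCA share a box whose relative scores balance out by construction, so their calls are not independent. GCC was at 0.958 and 0.962 in adult against 0.917 and 0.844 in young libraries, and GCA at 0.890 and 0.912 in adult against 0.924 and 0.966 in young libraries. Young replicate 2 was the lowest library of GCC and the highest of GCA, and without it the adjusted p was 0.577 for all 3 codons. Without adult replicate 1 it lay between 0.272 and 0.309.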

How the results depend on the processing

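Of the 72 pairs and sites, those that stayed called in the same direction or stayed uncalled were counted as kept. An uncalled pair could change sign, such as GTC over GTT in the P site, at -0.013 to 0.014 with each library left out. All 72 were kept without the 10 most abundant transcripts and with proline runs included. There were 71 kept with scores capped at 10, 71 with the replicate number as a block and 69 within transcripts. With 40 codons left out at each end 69 were kept, at equal depth 68, with over 2 reads per codon 68 and with no coverage minimum 66. The exact test kept 65, neighbouring codons modelled 57, summed reads 53 and the deposited codon read as the A site 37. Leaving out each library in turn kept 63 (without old replicate 1) to 70 (without adult replicate 2). Calls were lost without a change of direction for 11 pairs with summed reads, 7 in the exact test, 5 with no coverage minimum, 5 with the other site, 2 with neighbours modelled and 8 without old replicate 1, and gained for 6 pairs with the other site, 4 with neighbours modelled and 2 with summed reads. All 36 values in the 3 pieces of the coding sequence lay within the spread between libraries. Old replicate 2 had the fewest reads per internal codon, 7.03, but this does not make the old group the one most limited by depth. The 10 most abundant transcripts took 25.2% of its footprints, against 60.5% in young replicate 1 and 62.3% in adult replicate 2. Covered transcripts numbered 4912 without old replicate 1, 4275 without young replicate 2 and 3883 without adult replicate 1. The cause of the changes below was not tested, apart from the change of site, which moves each value by 1 codon. Counts of calls in these settings are given without the share over all codons or pairs. They therefore do not show whether a change was particular to the 4 boxes.

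With the deposited codon read as the A site, pairs turned as follows. In the P site GCC over GCG became 0.026, GCG over GCT -0.22, GCA over GCT -0.17, CCG over CCA -0.0093, ACG over ACT -0.053 and ACA over ACT -0.10. In the A site GCC became -0.18 over GCG, -0.29 over GCA and -0.041 over GCT, GCG over GCT 0.14, CCG 0.039 over CCA and -0.11 over CCT, CCA over CCT -0.15, ACC -0.64 over ACG and -0.36 over ACA, ACG 0.29 over ACA and 0.53 over ACT, ACA over ACT 0.24 and GTG over GTA 0.041. E-site GCC over GCA became 0.14, ACC 0.016 over ACG and 0.017 over ACA, and GTC 0.13 over GTG and 0.020 over GTT. The averages over boxes became -0.24 for C over T and -0.14 for A over T in the P site, -0.11 for C over T, 0.070 for A over T and 0.066 for G over A in the A site, and -0.14 for C over T and -0.21 for A over T in the E site. Of these, C over T in the P site and both E-site averages kept their sign and passed 0.05 after adjustment. There were 8 large pairs in the A site. Age calls became 1, 2 and 4 in the P site (old against young, adult against young, old against adult) and 0 in the E site for the contrasts with young. For relative scores there were 3 in the P site for adult against young, and 1, 0 and 4 in the E site, where ACC for adult against young was -0.0015.

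With neighbouring codons modelled, 2 pairs were large in the E site. GCC over GCA became -0.098, GCC over GCT -0.0082 and GTC over GTT -0.043 in the A site. E-site GCC over GCA became 0.085, GCG over GCA 0.031, CCG over CCA 0.053, ACG over ACT 0.025, GTC over GTT 0.054 and GTG over GTT 0.045. The averages were -0.11 (C over T), 0.066 (A over T) and 0.087 (G over A) in the P site, -0.039, 0.027 and -0.15 in the A site and -0.12, -0.11 and 0.075 in the E site. C over T and A over T turned in the A site, and the other averages passed 0.05 after adjustment. E-site age calls were 2 for old against young and 1 for adult against young, and 5 for relative scores of old against adult.

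With summed reads over summed expected reads, which weights positions by abundance, the A site turned for GCC over GCA (-0.074), CCC over CCT (0.059), GTC over GTA (-0.095) and GTA over GTT (0.16), and the E site for GCG over GCA (0.014) and CCG over CCA (0.099). The averages were -0.14 (C over T) and 0.056 (G over A) in the P site, 0.069 (A over T) and -0.20 (G over A) in the A site, and -0.24 (C over T), -0.15 (A over T) and 0.071 (G over A) in the E site. With no coverage minimum they were -0.098 and 0.11 in the P site, -0.042 and -0.087 in the A site, and -0.19, -0.15 and 0.058 in the E site, in the same order. With 40 codons left out at each end they were -0.11 (C over T), 0.072 (A over T) and 0.061 (G over A) in the P site, -0.13 (G over A) in the A site and -0.24 (C over T) and -0.13 (A over T) in the E site. Within transcripts they were -0.12, 0.075, 0.063, -0.11, -0.24 and -0.14 in the same order. With over 2 reads per codon CCG over CCA in the P site became -0.0091.

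Calls of the E site by age fell to 0 in all 3 contrasts under edgeR, summed reads, a cap at 10 and no coverage minimum, and to 0 against young with 40 codons left out. For old against young there were 3 with proline runs included, 3 at equal depth and 2 with over 2 reads per codon. With adjustment over all sites and contrasts there was 1 for adult against young and 1 for old against adult. For relative scores of adult against young there were 0 with summed reads, no coverage minimum and the wider adjustment. For relative scores of old against adult there was 1 with summed reads and 1 with the cap, 2 with over 2 reads per codon, 2 at equal depth and 3 with 40 codons left out.

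With the replicate number as a block, E-site calls were 3 for old against young, and calls of relative scores were 1 for adult against young and 1 for old against adult in the P site, and 0 for adult against young and 1 for old against adult in the E site. Leaving out each library in turn gave 0 to 1 calls in the P site for old against young and for old against adult, 0 to 3 and 0 to 1 in the A site for adult against young and old against adult, and 0 to 5, 0 to 5 and 0 to 4 in the E site for old against young, adult against young and old against adult. For relative scores it gave 0 to 1 in the A site for old against young and old against adult, and 0 to 5 in the E site for adult against young and old against adult.

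With the neighbouring amino acid after the codon, the highest over the lowest codon turned at its lowest to -0.0033 for alanine and -0.071 for valine in the P site, -0.14 for alanine and -0.061 for threonine in the A site, and -0.068 for alanine, -0.055 for threonine, -0.33 for valine and -0.029 for proline in the E site. With the amino acid before, it turned to -0.10 for valine in the P site, -0.31 for alanine, -0.033 for threonine and -0.014 for proline in the A site, and -0.10 for alanine and -0.082 for valine in the E site. Both splits were chosen after seeing the data.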
